A study of Mus musculus with 201 samples.

Results

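Nuclei of dentate granule cells (DGCs) that stained for FOS protein were divided by whether their own RNA held the transcript of *Arc*. Of 201 samples in the series, 96 were single nuclei from a mouse that had explored a new environment (NE), and 48 of these were sorted as PROX1+FOS+. Of those 48, 40 passed the limits on depth and on genes detected and are described here. They were grouped by their measured *Arc* level: 31 nuclei with *Arc* above 1 TPM (TPM, transcript abundance scaled for gene length and library size, is the level used throughout) were called Arc-positive and 9 nuclei at 1 TPM or less Arc-negative. *Arc* chose the groups and is left out of every result.

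The NE nuclei came from a C57BL/6 mouse. By the study's account the NE exposure was brief, and NE mice were killed 1 h after they were put back in the home cage. The study's wild-type C57BL/6 mice were females of 8 weeks. Nuclei were released by Dounce homogenization, stained for PROX1 (the transcription factor that marks DGCs) and FOS, sorted 1 to a well and amplified by Smart-seq2. The FOS− nuclei of the same mouse, 41 of 48 after the same limits, are given beside both groups. Whole cells of *Prox1*-GFP mice, sorted for GFP after protease dissociation 1 h after an injection of saline or of the convulsant pentylenetetrazole (PTZ), are used for a last side-by-side reading.

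When a neuron fires strongly, calcium entry and the ERK and CREB pathways switch on a first wave of immediate early genes (IEGs) within minutes, without new protein. Many encode transcription factors of the FOS, JUN, EGR and NR4A families. These and CREB then act on a later wave of genes for kinases, phosphatases, synaptic proteins and secreted factors. In the dentate gyrus few granule cells are recruited by any experience. FOS protein outlasts *Fos* RNA, so a nucleus can carry the protein without the transcript.

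The members were picked from 1 mouse and split by a transcript of their own, so no test between the groups was run and no p value is given. Differences are in mean log2(TPM + 1), Arc-positive minus Arc-negative, with the SD over nuclei, which are cells of 1 animal and not replicates of a condition. A gene is called detected in a nucleus at TPM above 1. Genes were considered when detected in at least 5 of the 40 members, and a difference of at least 3 on this scale, in either direction, was used as a limit for description. A gene detected in Arc-positive nuclei alone can pass this filter, and its sign then follows largely from the filter. Of the genes considered, 697 were detected in 0 Arc-negative nuclei.

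The groups were uneven across the amplification conditions, which varied the template-switching oligo (TSO) and the dilution of ERCC spike-in RNA. At 10 µM TSO and ERCC 1:200 there were 5 Arc-positive and 6 Arc-negative nuclei. At 10 µM and 1:2000 there were 9 and 2, at 1 µM and 1:2000 there were 7 and 1, and at 1 µM and 1:200 there were 10 and 0. Within-condition values exist for the first pair of conditions only. Total expected counts ran from 88348 to 1035170 (median 277748) in Arc-positive nuclei and from 80096 to 801665 (median 214391) in Arc-negative nuclei. Genes detected averaged 6177 ± 1238 (SD, n = 31) and 6214 ± 1943 (SD, n = 9), with medians of 5903 and 6498 and overlapping ranges. The near-equal means rest on Arc-negative replicate 46, without which their difference was −642 (Arc-positive minus Arc-negative). Arc-negative replicate 46 stood apart with 1373 genes, against at least 5633 in the other 8. It is 1 of the 2 Arc-negative nuclei at 10 µM and 1:2000, so every value of that condition rests on it in part, and the values named from there are also given without it.

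The threshold fell in a gap of the *Arc* levels. All 9 Arc-negative nuclei had *Arc* at 0 TPM. Just inside, 3 Arc-positive nuclei had 1.85, 3.03 and 8.77 TPM, which rested on 1, 1 and 2 reads. The next had 145 TPM from 46 reads, and the highest had 2053 TPM. These 3 nuclei are replicates 31, 21 and 30 in that order.

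The Arc-positive nuclei held many more transcripts of activity-regulated genes. From 3 lists of such genes, 66 in all, they had between 10 and 53 detected, with a median of 33. The Arc-negative nuclei had between 9 and 16, with a median of 12, and the FOS− nuclei between 4 and 23, with a median of 10. The 28 nuclei with *Arc* of at least 10 TPM all had 19 or more, above every Arc-negative nucleus. Of the 3 nuclei with 1 or 2 *Arc* reads, replicates 30 and 31 had 26 and 29 and replicate 21 had 10, within the Arc-negative range. The separation was present within both conditions that allow it: 10 to 45 against 10 to 16 at 10 µM and 1:200, where replicate 21 is the lowest, and 33 to 53 against 9 to 12 at 10 µM and 1:2000, where replicate 46 had 9 and the other Arc-negative nucleus 12. With every nucleus thinned to 80000 counts, the medians were 31 and 10 and the ranges 7 to 48 and 6 to 14. *Arc* is itself a gene of this response, and the lists were chosen with earlier results of these data known.

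**Figure D1:**
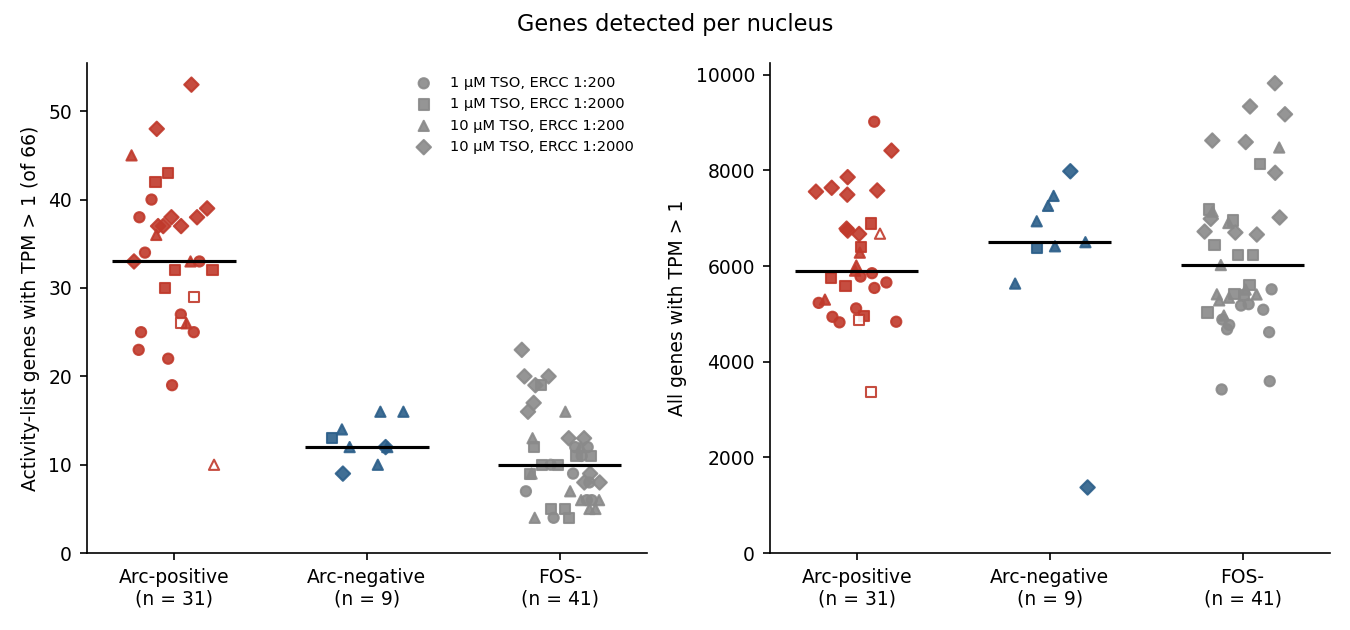
Each point is a nucleus. Left, number of the 66 activity-list genes detected (TPM > 1); right, number of all genes detected; marker shape gives the amplification condition, open red markers are the 3 nuclei with Arc under 10 TPM, and bars are medians. Activity-list genes reach 53 in Arc-positive nuclei and at most 16 in Arc-negative nuclei, while the totals of all genes overlap.

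Of 12988 genes considered, 323 (2.49%) differed by at least 3. In Arc-positive nuclei 138 (1.06%) were higher and 185 (1.42%) were lower. Of the 138 higher genes, 29 were detected in 0 Arc-negative nuclei. The median difference over all genes considered was −0.03. When each nucleus was centred on the median of its detected genes the counts became 175 and 112, so the balance of the directions depends on the scaling. Without Arc-negative replicate 46, 119 genes were higher and 344 lower. These genes were chosen on the same nuclei, so their signs within conditions are a description. At 10 µM and 1:200, 136 of 138 higher and 185 of 185 lower genes had the overall sign. Of all genes considered, 65.9% of those with a positive and 79.5% of those with a negative overall difference did. At 10 µM and 1:2000, 138 and 146 did, against 88.7% of all genes with a positive and 37.8% of those with a negative overall difference. The median over all genes was 0.91 in that condition, so the share for the higher genes lies near its background. Without replicate 46, which leaves 1 Arc-negative nucleus in that condition, 122 of 138 and 148 of 185 did. The shares of all genes were then 65.8% for a positive and 55.4% for a negative overall difference. The FOS− mean, which the grouping did not use, lay nearer to the Arc-negative than to the Arc-positive mean for 122 of the 138 higher genes (88.4%) and for 69 of the 185 lower genes (37.3%), against 46.8% of all genes considered.

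**Figure D2:**
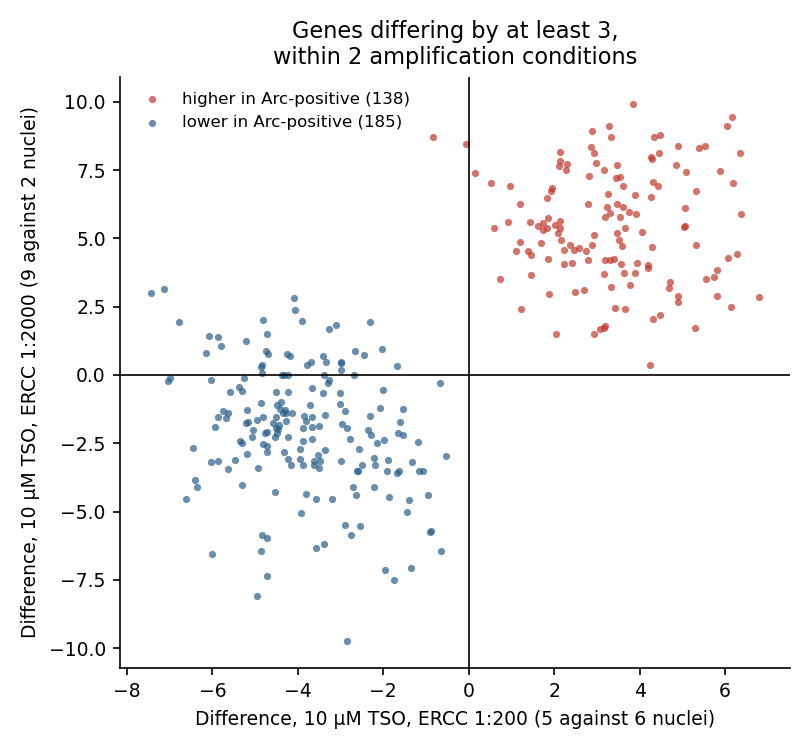
Each point is a gene that differed by at least 3 between all Arc-positive and Arc-negative nuclei; axes give its difference in mean log2(TPM + 1) within each of the 2 conditions with at least 2 nuclei of each group. Of the higher genes (red) 136 lie in the upper right quadrant, whereas 146 of the 185 lower genes (blue) lie in the lower left.

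Among regulators of growth factor and kinase signalling, *Spry2* had the largest difference of all genes considered. *Spry2*, which encodes Sprouty 2, a feedback inhibitor of receptor tyrosine kinase signalling, was at 0 to 2380 TPM in Arc-positive nuclei (median 636). Its gene is at chr14:105891947-105896819 (GRCm38). The 9 Arc-negative nuclei (replicates 14, 15, 19, 20, 22, 23, 32, 42 and 46, the order used throughout) had 3.70, 8.02, 6.82, 0, 0, 0, 1.95, 1.88 and 0 TPM. Of the Arc-positive nuclei 30 of 31 lay above all of these, the exception being replicate 21, and the FOS− median was 0. The means were 8.87 ± 2.03 (SD, n = 31) and 1.27 ± 1.32 (SD, n = 9), a difference of 7.60.

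*Plk2*, polo-like kinase 2, which acts in dendritic spines to weaken synapses after strong activity, was detected in all 31 Arc-positive nuclei, at 14.4 to 3564 TPM (median 969). The Arc-negative nuclei ran from 0 to 144 TPM with a median of 3.98, and 29 of 31 Arc-positive nuclei exceeded the highest. Its difference was 7.14, with 5.52 and 8.38 in the 2 conditions with 10 µM TSO, the latter 9.54 without replicate 46. *Pim1*, a serine/threonine kinase induced by growth signals, reached 701 TPM in Arc-positive nuclei (median 94.8) and was detected in 28 of 31, against 1 of 9 Arc-negative nuclei at 6.40 TPM. It was detected in 1 of 41 FOS− nuclei.

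*Gadd45g*, a stress-inducible gene of the family tied to active DNA demethylation, differed by 5.79 and was detected in 25 of 31 against 1 of 9 nuclei. *Sgk1*, a serum- and glucocorticoid-regulated kinase, differed by 5.42, with 25 of 31 and 2 of 9. *Mapk4*, an atypical MAP kinase, was detected in 25 of 31 Arc-positive nuclei (80.6%, exact 95% binomial interval 62.5 to 92.5%) and in 0 of 9 Arc-negative nuclei, where the exact upper bound is 33.6%. In all, 10 of the 25 considered signalling genes were past the limit upward, against 1.06% of all genes considered, and 0 downward. Their median difference was 2.67, or 2.54 with no filter on genes. The 2 with a lower mean in Arc-positive nuclei were *Dusp14* (−0.30), a phosphatase, and *Errfi1* (−0.22), an inhibitor of the EGF receptor. *Dusp1*, a phosphatase that switches off MAP kinases, differed by 1.01, with 5 of 31 and 0 of 9 nuclei.

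Genes of the synapse and of secretion differed most as a group. Of 14 considered, 8 were past the limit upward, against 1.06% of all genes, and 0 downward. The median difference was 4.68, or 4.66 with no filter on genes. *Inhba* encodes the activin A subunit, a secreted ligand of the TGF-β family. It ran from 0 to 3347 TPM (median 685) in Arc-positive nuclei, was detected in 27 of 31, and reached no more than 7.53 TPM in Arc-negative nuclei, with a difference of 7.02. *Pcdh8* (arcadlin), a protocadherin that removes N-cadherin from the synaptic surface, was at 3.61 to 2284 TPM in the 31 Arc-positive nuclei. In the 9 Arc-negative nuclei it was at 2.07, 140, 0, 47.1, 0, 3.0, 92.1, 0 and 0 TPM. Of 31 Arc-positive nuclei 29 lay above this range, and its difference was 6.70.

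*Nptx2*, a secreted pentraxin that clusters AMPA receptors, was detected in 22 of 31 Arc-positive nuclei (highest 789 TPM) and had 0 reads in the 9 Arc-negative nuclei together. *Ptgs2*, the inducible cyclo-oxygenase of prostaglandin synthesis, was detected in 24 of 31 (highest 1997 TPM), also with 0 Arc-negative reads. Against a floor of 3 counts over the Arc-negative group, their summed counts, scaled to the group total, were at least 242-fold and 385-fold higher in Arc-positive nuclei. Such bounds cover counting error only, since amplified reads are not independent molecules. The absence of a transcript and its loss in amplification cannot be told apart in a single nucleus.

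*Homer1*, a scaffold of metabotropic glutamate receptors whose short form is activity-induced, did not separate the groups by detection alone. It was present in 31 of 31 Arc-positive nuclei, from 2.21 to 3977 TPM with a median of 491. Among the Arc-negative nuclei 6 of 9 had it, and the values were 85.3, 114, 0, 22.2, 35.8, 0, 1.54, 48.9 and 0 TPM. The difference was 4.91, and 24 of 31 Arc-positive nuclei lay above 114 TPM. *Nrn1*, a membrane-anchored neurotrophic factor, differed by 5.37 although the Arc-negative group split into 4 nuclei at 344 to 646 TPM and 5 at 0. *Synpo*, a spine apparatus protein, was detected in 29 of 31 and 8 of 9 nuclei and differed by 2.87, short of the limit. *Bdnf*, the neurotrophin, differed by 4.70, with 30 of 31 and 5 of 9 nuclei.

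Other leading genes lay outside the lists. *Etv3*, an ETS-family repressor, differed by 6.71 and *Ankrd33b*, an ankyrin-repeat gene, by 6.06. *Stmn4*, a neuronal stathmin that binds tubulin, differed by 6.42 (27 of 31 against 1 of 9). *Cenpa*, the histone H3 variant of centromeres, was detected in 21 of 31 and 0 of 9, with a difference of 5.96, and in 1 of 41 FOS− nuclei. *Slc6a8*, the creatine transporter, differed by 5.60. The 12 leading genes, which include 1700016P03Rik, kept differences of 5.43 to 7.90 when any single nucleus was left out.

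**Figure D3:**
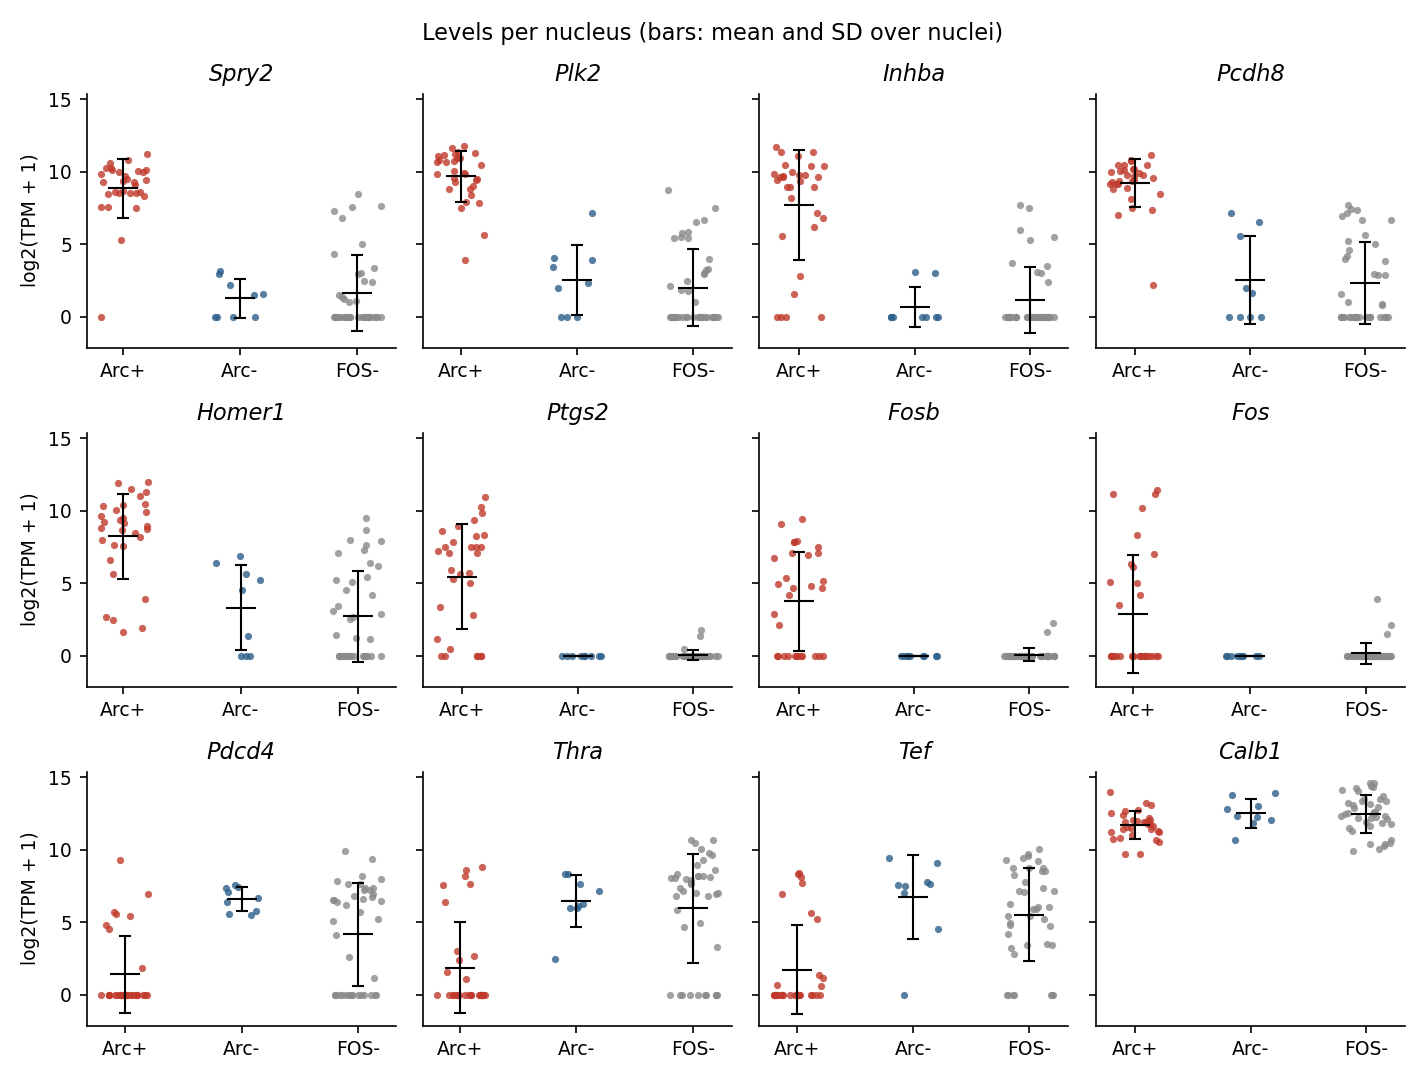
Levels of 12 genes in each of 31 Arc-positive (Arc+), 9 Arc-negative (Arc-) and 41 FOS− nuclei, in log2(TPM + 1), with mean and SD over nuclei. Spry2, Plk2 and Pcdh8 are high in nearly every Arc-positive nucleus, Ptgs2, Fosb and Fos are at 0 in all 9 Arc-negative nuclei, Pdcd4, Thra and Tef are lower in Arc-positive nuclei, and Calb1 is high in all 3 groups.

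The IEG transcription factors were detected unevenly within the Arc-positive group, as the signalling genes were. All 18 considered had a higher mean in Arc-positive nuclei, beside 6314 of all 12988 genes considered. Past the limit upward were 7, against 1.06% of all genes. *Fos*, *Fosb*, *Egr2*, *Egr3*, *Egr4*, *Nr4a1*, *Ier5* and *Npas4* were detected in 0 Arc-negative nuclei. They were considered through Arc-positive nuclei alone, so their sign was set by the filter and is not a result. The median difference was 2.71, or 1.87 with no filter on genes. Arc-positive nuclei had between 1 and 18 of the 24 listed factors detected (median 10.0), and Arc-negative nuclei between 0 and 4 (median 3). The list median was positive under the other alternatives tried, but with group medians in place of means the median difference of the list was 0.00, with *Fos*, *Egr1* and *Nr4a1* among those at a median of 0 TPM in both groups.

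*Fos* RNA was detected in 12 of 31 Arc-positive nuclei (38.7%, exact interval 21.8 to 57.8%) and in 0 of 9 Arc-negative nuclei, which had all been sorted for FOS protein. In the 12 nuclei it ran from 10.3 to 2819 TPM, and 1 nucleus supplied 49.0% of the group's *Fos* counts. It was detected in 3 of 41 FOS− nuclei at no more than 13.8 TPM. The difference of 2.89 was short of the limit. *Fosb*, the longer-lived relative of *Fos*, was detected in 19 of 31 and 0 of 9 and differed by 3.76. *Junb*, a partner of the FOS proteins in the AP-1 complex, differed by 4.24, with 17 of 31 against 1 of 9 nuclei. *Fosl2* differed by 3.90, with 26 of 31 against 1 of 9. At 10 µM and 1:2000 it differed by 1.72, or by −0.42 without replicate 46.

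The nuclear receptors *Nr4a1* and *Nr4a2* differed by 3.26 and 3.63. *Nr4a1* was undetected in all 9 Arc-negative nuclei, whereas *Nr4a2* was detected in 4 of them at up to 156 TPM. Among the zinc-finger EGR factors *Egr4* differed by 3.08, *Egr1* by 1.65, *Egr2* by 1.19 and *Egr3* by 0.98. *Egr1* was detected in 12 of 31 Arc-positive nuclei and in 1 Arc-negative nucleus, at 128 TPM. *Atf3*, a stress-induced member of the ATF family, differed by 2.85 and *Sertad1*, a transcriptional co-regulator, by 2.95.

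Co-detection within single nuclei was counted for 2 sets of genes, both chosen after their values were seen. Of *Fos*, *Fosb*, *Junb* and *Egr1*, all 4 were detected in 7 Arc-positive nuclei, 3 in 2, 2 in 8, 1 in 10 and none in 4. Of *Homer1*, *Plk2*, *Pcdh8*, *Spry2* and *Bdnf*, all 5 were detected in 30 of 31. The Arc-negative nuclei had none of the first set in 7 and 1 in 2. They had 2 of the second set in 3 nuclei, 3 in 3 and 4 in 3, and all 5 in 0 of 9. The 5 genes were each detected in at least 30 of 31 Arc-positive nuclei, so the choice itself sets their joint count. Other synaptic and secreted genes were detected in fewer (*Nptx2* in 22, *Ptgs2* in 24). The study names *Homer1* among the IEGs and time was not measured, so the 2 sets are not read as an early and a late wave. The levels behind these detections were low in Arc-negative nuclei, at most 144 TPM for the second set.

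The gene model with the second largest difference was 1700016P03Rik, at chr11:75172560-75177633 on the plus strand of GRCm38. It ran from 0 to 3358 TPM in Arc-positive nuclei, was detected in 26 of 31, and was at 0 in all 9 Arc-negative nuclei, for a difference of 7.57. It was singled out after its value was seen, because GENCODE M21 places *Mir212* and *Mir132* inside it on the same strand. These microRNAs are known from CREB-dependent transcription in neurons. The tables do not measure the mature forms, which differ in 3′ letters but share the seed (bases 2 to 8, in capitals), as the RefSeq sequences from GRCm38.p6 show:
mmu-miR-132-3p, chr11:75173723-75173744, plus strand: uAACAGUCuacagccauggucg
mmu-miR-212-3p, chr11:75173443-75173464, plus strand: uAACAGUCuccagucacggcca
*Ovca2* overlaps the host on the opposite strand, and Smart-seq2 libraries do not keep strand, so reads in the shared part cannot be told apart.

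Promoter windows from RefSeq (250 bases before to 50 after a start, GRCm38.p6) were searched on both strands for short motifs. The full cAMP response element (CRE, TGACGTCA), the site that CREB binds, was in a window of 9 of the 63 genes with windows (14.3%) among 101 that were higher and met the naming rule. It was in 301 of 8178 genes considered that have windows (3.68%), and in 0 of 46 genes among 62 that were lower and met the rule. The shorter site TGACG, which the full site contains, was in 57.1%, 34.7% and 37% of the same sets. The AP-1 motif TGANTCA was in 3.17%, 6.76% and 4.35%, and the EGR motif (GCGTGGGCG or GCGGGGGCG) in 12.7%, 7.04% and 4.35%. The CArG box was in 0 of 63 higher genes against 1.71% of all. Higher genes had 1.41 windows per gene against 1.29 over all, and a match is a description of letters, not of binding.

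The 9 genes with a full CRE were *Arl4d*, *Clstn3*, *Dvl1*, *Plk2*, *Rab11fip3*, *Slc25a25*, *Wsb1*, *Zdbf2* and *Zwint*. Upstream stretches of those that had the site before the start are shown with the CRE in capitals, 5′ to 3′ on the gene's strand, to set the shared site beside its varied surroundings:
Plk2, chr13:110394957-110395014, plus strand: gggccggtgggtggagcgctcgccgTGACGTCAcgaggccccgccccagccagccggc
Arl4d, chr11:101665490-101665540, plus strand: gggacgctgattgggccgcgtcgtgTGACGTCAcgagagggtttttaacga
Rab11fip3, chr17:26069536-26069593, minus strand: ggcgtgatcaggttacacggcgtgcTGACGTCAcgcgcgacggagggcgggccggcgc
Slc25a25, chr2:32424184-32424241, minus strand: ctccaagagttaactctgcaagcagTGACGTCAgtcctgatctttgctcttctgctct
Wsb1, chr11:79254701-79254758, minus strand: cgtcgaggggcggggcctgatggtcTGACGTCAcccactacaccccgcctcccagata
Zdbf2, chr1:63273185-63273242, plus strand: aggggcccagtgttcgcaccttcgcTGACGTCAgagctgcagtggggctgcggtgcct
Zwint, chr10:72654798-72654845, plus strand: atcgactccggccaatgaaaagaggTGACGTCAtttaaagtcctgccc
Among them *Plk2* had the largest difference. *Arl4d*, a small GTPase, was detected in 17 of 31 and 0 of 9 nuclei (3.85), *Zwint*, a kinetochore-associated protein, in 24 and 4 (4.38) and *Wsb1*, a ubiquitin ligase subunit, in 28 and 5 (4.03). *Slc25a25*, a mitochondrial ATP-Mg carrier, was detected in 20 and 1 (3.38). The site lay 23 bases upstream of the start in *Zwint*, 26 in *Arl4d* and 150 in *Slc25a25*.

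Genes that were lower in Arc-positive nuclei were of mixed function, led by the unnamed gene model F730043M19Rik (−5.57). *Pdcd4*, an inhibitor of the translation factor eIF4A, was detected in all 9 Arc-negative nuclei, at 82.2, 54.0, 188, 44.1, 100, 168, 166, 135 and 46.5 TPM. It was detected in 8 of 31 Arc-positive nuclei (25.8%, exact interval 11.9 to 44.6%), where 27 of 31 lay below the lowest Arc-negative value, and in 26 of 41 FOS− nuclei. The difference was −5.17, and it was −3.58 and −4.55 within the 2 conditions, the latter −5.30 without replicate 46. *Thra*, the thyroid hormone receptor alpha, was also in 9 of 9 Arc-negative nuclei, against 11 of 31, for a difference of −4.61. It overlaps *Nr1d1* on the opposite strand.

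*Tef*, a PAR bZIP factor under circadian control, differed by −4.98 and *Ncoa6*, a nuclear receptor coactivator, by −5.14. *Mark2*, a kinase of microtubule-associated proteins, differed by −4.99 and *Trim46*, which bundles microtubules in the proximal axon, by −5.02. *Pdhb*, a subunit of pyruvate dehydrogenase, differed by −4.85 and *Arhgap20*, a GTPase-activating protein, by −4.79. *Cep70*, a centrosomal protein, differed by −4.67 and *Naa20*, the catalytic subunit of an N-terminal acetyltransferase, by −4.64. At 10 µM and 1:2000 *Naa20* differed by −1.54, or by 3.08 without replicate 46. *Chn1os1* (−4.67) lies antisense to *Chn1*, with which its reads cannot be told apart. The same limit holds where other lower genes overlap a gene on the opposite strand. *Mark2* overlaps Gm17227 (detected in 15 members), *Tef* overlaps Gm17597 (14), *Trim46* overlaps *Krtcap2* (10) and F730043M19Rik overlaps Gm16267 (6). For *Tef*, *Thra*, *Arhgap20* and *Cep70* the FOS− means of 5.53, 5.96, 6.87 and 5.43 were near the Arc-negative means of 6.73, 6.49, 7.27 and 6.46. For *Ncoa6*, *Mark2* and *Naa20* the FOS− means of 1.98, 3.25 and 2.51 were nearer to the Arc-positive means of 0.98, 2.29 and 2.65.

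Read as a log2 ratio of summed counts, in place of a difference of mean logs, the 12 named lower genes stood nearer to 0: −0.83 for *Thra*, −1.27 for F730043M19Rik, −2.02 for *Mark2* and −2.40 for *Pdcd4*, while *Ncoa6* stood at −4.86 and *Chn1os1* at −4.38. The same reading gave 7.88 for *Spry2*, 6.84 for *Plk2* and 8.50 for *Inhba*, and smaller values than the difference of mean logs for *Nrn1* (2.08), *Pcdh8* (4.18) and *Ankrd33b* (4.30). Both counts moved with the choice of nuclei. With the 3 nuclei of 1 or 2 *Arc* reads moved to the other group, 161 genes were higher and 73 lower. With all 48 FOS+ nuclei, including the 8 shallow ones, 373 were higher and 6 lower. Without the 10 µM and 1:200 condition 471 were higher and 338 lower. In FOS− nuclei the lower genes were themselves higher at 10 µM and 1:200 than in the other conditions, by a median of 0.61, against 0.02 for the higher genes, and 6 of the 9 Arc-negative nuclei were in that condition. The part of the condition in the lower genes was not tested.

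**Figure D4:**
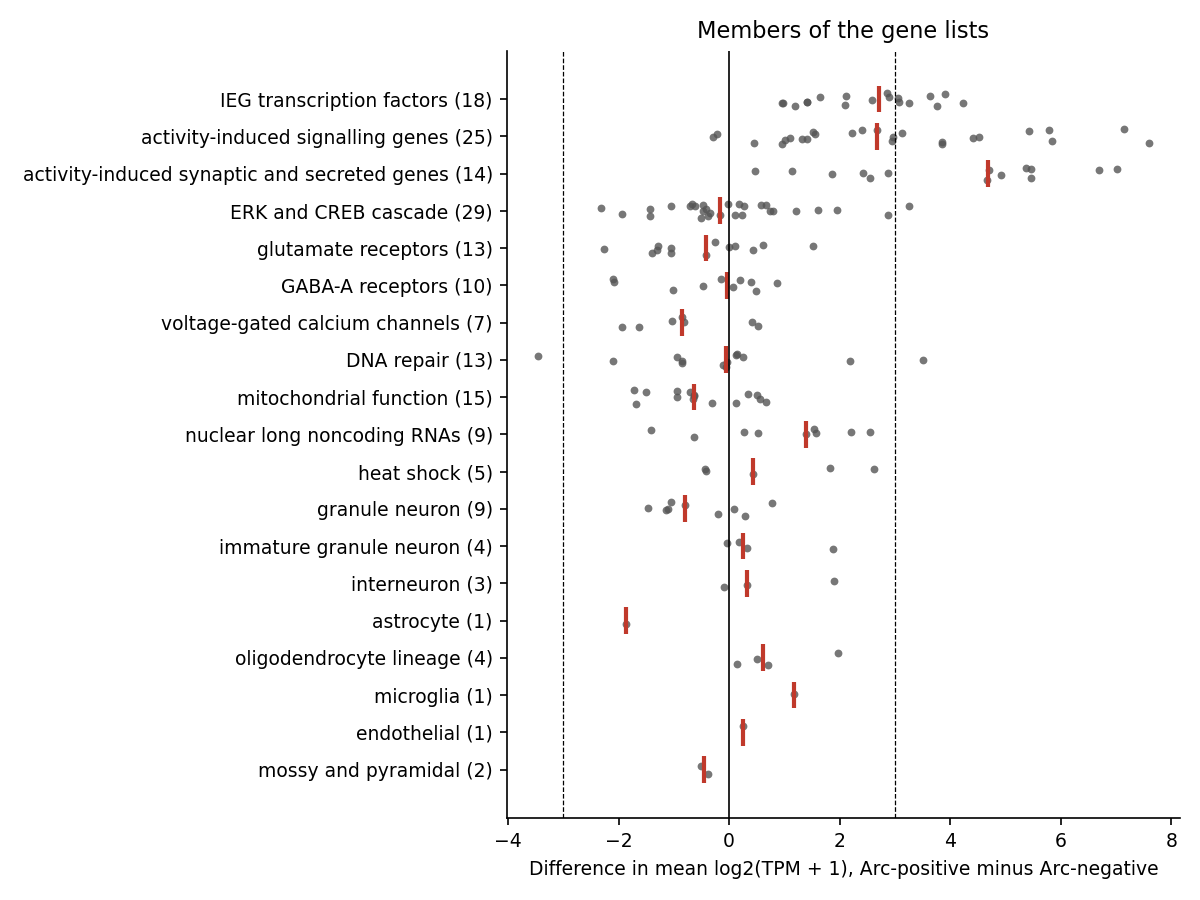
Differences in mean log2(TPM + 1), Arc-positive minus Arc-negative, for the considered members of each list (numbers of members in parentheses); red bars are list medians and dashed lines mark differences of 3. The 3 activity lists lie to the right, with medians of 2.71, 2.67 and 4.68, and the medians of the other lists lie between −1.87 (astrocyte, 1 gene) and 1.39 (nuclear noncoding RNAs).

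Of 29 considered members of the ERK and CREB cascade, through which activity reaches the nucleus, 1 was past the limit, near the 2.49% of all genes. The median difference was −0.16. That gene, *Rps6ka3*, encodes the CREB kinase RSK2 and was detected in 22 of 31 and 3 of 9 nuclei, with a difference of 3.26. Its difference was 0.92 at 10 µM and 1:200 and 5.60 at 10 µM and 1:2000 (4.19 without replicate 46). *Map2k1*, the ERK kinase MEK1, had a difference of 2.88, and *Ep300*, the CREB-binding coactivator p300, one of −2.31.

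Of 13 glutamate receptor genes, 10 GABA-A receptor genes and 7 voltage-gated calcium channel genes, 0 were past the limit, a number too small to set against 2.49% of all genes. The median differences were −0.41, −0.04 and −0.85. *Gria1*, an AMPA receptor subunit, was detected in 29 of 31 and 9 of 9 nuclei, with means of 7.52 ± 2.30 (SD, n = 31) and 8.80 ± 1.90 (SD, n = 9). *Grin1*, the obligatory NMDA receptor subunit, was at 7.98 ± 2.59 (SD, n = 31) and 6.46 ± 3.02 (SD, n = 9). *Grm5*, a metabotropic receptor, had a difference of −2.27 overall and −5.63 at 10 µM and 1:200.

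Of 13 DNA repair genes 2 were past the limit, in opposite directions, and the list median was −0.06. The list is too short to set against 2.49% of all genes. *Parp1*, which senses strand breaks, was detected in 28 of 31 and 5 of 9 nuclei with a difference of 3.50, and *Rad50*, of the MRN complex at double-strand breaks, in 2 of 31 and 5 of 9 with −3.46. Both groups overlapped widely for *Parp1*: 7 of 31 Arc-positive nuclei exceeded the highest Arc-negative value. At 10 µM and 1:2000, without replicate 46, *Parp1* differed by −2.29. *Rad50* fell short of the limit without 1 of the nuclei (−2.81). *Topbp1*, a replication stress scaffold, was level at 0.15, and *Tdp1*, a repair phosphodiesterase, was detected in 0 of 31, 1 of 9 and 14 of 41 FOS− nuclei. Among 15 mitochondrial genes 0 were past the limit (median −0.63), again too few genes to set against that share. *Esrra*, a receptor that drives mitochondrial genes, had 0 reads in all 40 members and was detected in 6 of 41 FOS− nuclei.

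A few genes that the study names were more often detected in FOS− nuclei than in Arc-positive nuclei, and are given as counts. *Clasp2*, a microtubule plus-end protein, was detected in 17 of 31 Arc-positive, 8 of 9 Arc-negative and 39 of 41 FOS− nuclei. *Calcoco1*, a coactivator and autophagy receptor, was detected in 1, 2 and 19, *Ndufaf3*, a complex I assembly factor, in 0, 1 and 7, and *Nos1*, neuronal nitric oxide synthase, in 4, 2 and 17.

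Both groups carried the markers of DGCs. *Prox1* was detected in 26 of 31 and 7 of 9 nuclei, with a difference of 0.08. *Calb1*, the calcium buffer calbindin of mature DGCs, was detected in all 40, at 837 to 16097 TPM and 1664 to 15141 TPM. *Rbfox3*, which encodes NEUN, was detected in 22 and 8 (−1.47). Of 9 granule neuron genes 0 were past the limit, a number too small to set against 2.49% of all genes.

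Markers of other cells were sparse in most nuclei of both groups. Of the considered members of those lists 0 were past the limit, and the lists are too short to set against 2.49% of all genes. Summed TPM ran from 0 to 422 and 0 to 225 for 7 immature granule neuron genes, and from 0 to 1364 and 0 to 419 for 7 interneuron genes, where *Slc32a1* and *Pvalb* were at 0 in all members. *Gad1*, which DGCs are known to express at low level, was detected in 16 of 31 and 3 of 9 nuclei, with a difference of 1.90. The 9 oligodendrocyte genes summed to 0 to 1017 and 0 to 441, with *Mog*, *Olig2* and *Cspg4* at 0. The 5 astrocyte genes summed to 0 to 584 and 0 to 364, with *Aldh1l1* at 0 and *Slc1a3* detected in 24 of 31 and 7 of 9. The 5 microglial genes summed to 0 to 3436 (median 4.66) and 0 to 9.97 (median 1.54), with *Aif1* and *C1qa* at 0. The sum of 3436 was in 1 of the 3 nuclei with *Arc* under 10 TPM, each of which had 2 or 3 of these genes detected. *Cx3cr1*, the fractalkine receptor and the 1 microglial gene considered, was detected in 25 of 31 and 4 of 9 nuclei, at up to 30.7 and 9.97 TPM, with a difference of 1.18. The 3 endothelial genes summed to 0 to 110 and 0 to 12.5, with *Cldn5* at 0, and the 4 mossy and pyramidal genes to 0 to 145 and 0 to 159, with *Drd2* and *Calcrl* at 0. Their part in the differences was not tested.

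Of 9 nuclear noncoding RNAs 0 were past the limit, a number too small to set against 2.49% of all genes. In Arc-positive nuclei 7 had a higher mean, and the median difference was 1.39, or 0.26 at 10 µM and 1:200. *Miat* (−1.42) and *Snhg11* (−0.64) had a lower mean. *Malat1*, an abundant nuclear noncoding RNA, took a median of 16.3% of TPM in Arc-positive nuclei (range 4.13 to 22.6%), 7.33% in Arc-negative nuclei (0.0512 to 13.9%) and 8.49% in FOS− nuclei. Replicate 46 was the lowest, and without it the Arc-negative range was 6.20 to 13.9%. *Malat1* differed by 0.61 at 10 µM and 1:200 and by 4.48 at 10 µM and 1:2000, or 0.82 there without replicate 46. *Neat1*, the scaffold RNA of paraspeckles, was detected in 17 of 31 and 3 of 9 nuclei, up to 636 TPM in the former and 2.87 TPM in the latter. Of 5 heat shock genes considered, also too few to set against that share, 0 were past the limit (median 0.44). *Hspa1a* and *Hspb1* were at 0 in all members. Whether these values bear on the other differences was not tested.

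The same split was read in whole cells, which the grouping of nuclei did not use. Of 38 saline cells 17 and of 30 PTZ cells 14 had *Arc* above 1 TPM. The cells differ from the nuclei in strain, dissociation and reads, and come from a pool of 2 mice for each treatment by the study's account. The study reports *Fos*, *Egr1* and *Arc* RNA in similar shares of saline and PTZ cells. It attributes this to the protease dissociation, which in its hands elicited IEG expression whatever the treatment. How much of the *Arc* in these cells came from the animal's experience was not tested. *Arc*-positive cells had more genes detected in both sets, with medians of 6698 against 6078 in saline and 6170 against 4944 in PTZ. Of all genes considered there, 63.3% and 79.9% were higher in *Arc*-positive cells. The part of the number of genes detected in this was not tested.

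The activity lists had positive median differences in *Arc*-positive whole cells too, beside medians over all genes of 0.25 in saline and 0.73 in PTZ cells. The counts of higher genes below stand beside 63.3% of all genes in saline and 79.9% in PTZ cells. In saline cells the IEG transcription factors had the largest median difference (3.95, with 19 of 20 genes higher), followed by signalling genes (2.95, 19 of 20) and synaptic and secreted genes (1.17, 11 of 13). In PTZ cells the values were 2.13 (21 of 22), 2.25 (21 of 21) and 0.90 (12 of 13), the last close to the median of all genes. In nuclei the synaptic and secreted genes came first, at 4.68. *Inhba* differed by 7.02 in nuclei and by −0.06 in saline cells, where 3 of 17 and 2 of 21 cells had it. *Fos* differed by 2.89 in nuclei and by 7.72 in saline cells, where it was detected in 16 of 17 *Arc*-positive and 14 of 21 *Arc*-negative cells. *Plk2* differed by 4.10 in saline and 0.87 in PTZ cells, and *Spry2* by 2.61 and 1.42.

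Of the 138 genes that were higher in Arc-positive nuclei, 112 were considered in saline cells and 80.4% of these had a higher mean in *Arc*-positive cells, against 63.3% of all genes. In PTZ cells 107 were considered and 82.2% were higher, against 79.9% of all genes, near the background. Of the lower genes 174 and 173 were considered, and 32.8% and 15.6% were lower in *Arc*-positive cells, against 36.7% and 20.1% of all genes. The shares for the lower genes were below those over all genes.

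**Figure D5:**
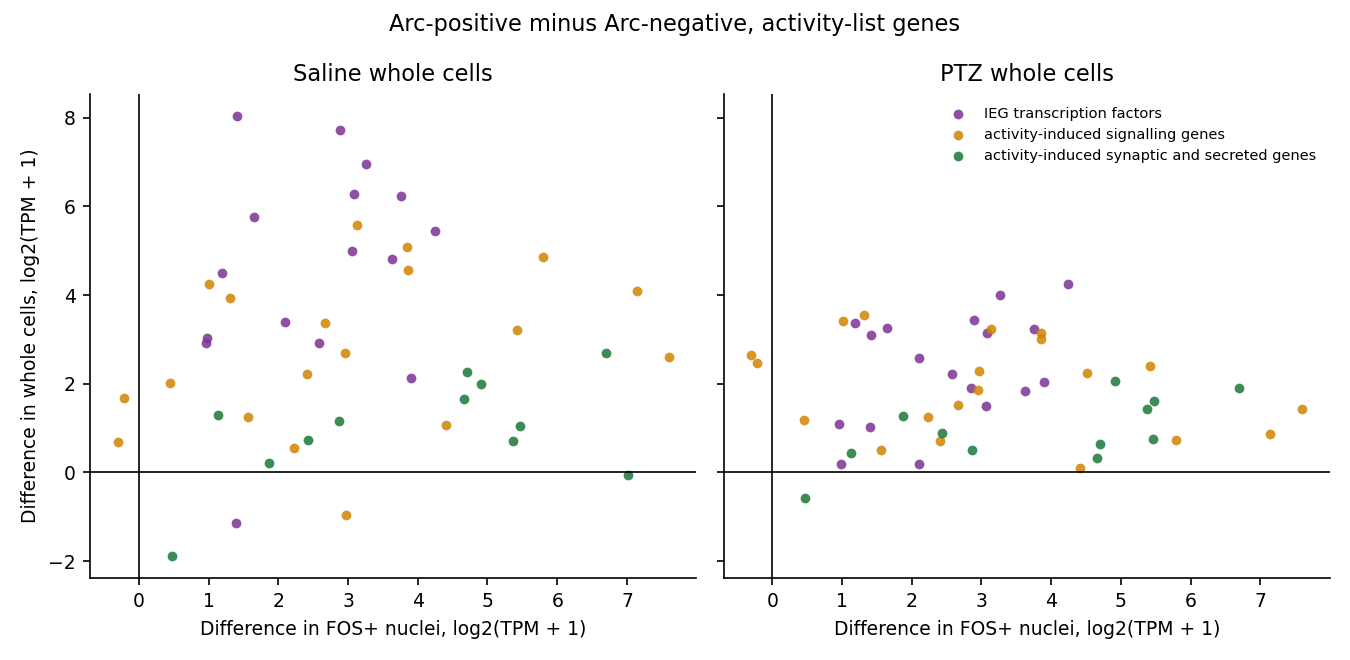
Differences in mean log2(TPM + 1), Arc-positive minus Arc-negative, for activity-list genes in FOS+ nuclei (horizontal) and in whole cells (vertical), for saline and PTZ cells. Points are genes considered in both nuclei and whole cells, coloured by list. Over all activity-list genes considered in whole cells, drawn or not, 49 of 53 in saline and 54 of 56 in PTZ cells were higher in Arc-positive cells. Of all genes considered there, 63.3% in saline and 79.9% in PTZ cells were higher. Synaptic and secreted genes lie low on the vertical axis.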

How the data were processed

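Single NE nuclei, and whole cells for comparison, were analysed from tables of expected counts and of TPM. The authors trimmed the reads, aligned them to mm10 with RSEM (Bowtie 1.0.0) and Ensembl genes, and deposited the RSEM expected counts per gene symbol without normalization. TPM came from the same RSEM runs and was deposited without a log. The NE table holds 42802 symbols, no mitochondrial transcripts and no spike-ins. Reads uniquely aligned are not in the tables, so total expected counts stood in for them.

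FOS+ nuclei were kept above 50000 counts and above the table mean minus 2 SD of genes with TPM above 1 (693 genes). All 8 nuclei left out had at most 17272 counts. The members and gene lists were chosen with earlier results of these data known. No test was fitted, since all nuclei come from 1 mouse and were grouped by a measured transcript. Nuclei differed from each other, with the highest correlation of log2(TPM + 1) at 0.671, and doublets were not called in these single sorted nuclei. Named genes were (1) up to 12 per direction with the largest difference among genes at or past 3, detected in at least 10 members, of 1 sign in each condition with 2 nuclei per group, and at least 3 without any 1 nucleus, (2) up to 5 per list, and (3) genes the study names. Unnamed gene models were counted: 18 of 101 higher and 6 of 62 lower genes that met the rule, 1 in each 12. The list of mitochondrial transcripts (9 genes) had no member in the table.

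Intervals are exact (Clopper-Pearson) and cover counting error only. Symbols were placed with GENCODE M21 (GRCm38), which matched 97.2% of genes considered. Alternatives covered the pseudocount, filters, *Arc* limit, thinning, edgeR 4.0.16 TMM scaling, centring, condition and each nucleus. Some single genes are not reported here. The calculation was tested on simulated data. Python 3.11.15, numpy 2.4.6 and pandas 2.3.3 were used.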

Additional observations from a re-analysis of the deposited data

Results flagged for a closer look

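Among the 9 Arc-negative nuclei, values whose highest or lowest nucleus lay far from the others (by Dixon's criterion for 9 values) were looked up over 116 quantities, and 28 were found. For normally distributed values about 1 in 20 such groups is found by chance, but many of these values were 0. A gene above 0 in only 1 of the 9 nuclei is always found, and 12 of the 28 were such genes. The quantities also share nuclei, so the count has no further reading. The total count was highest in replicate 32 (801665), and the number of genes with TPM above 1 was lowest in replicate 46 (1373). The fewest IEG transcription factors detected in a nucleus was 0.

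Genes above 0 in 1 Arc-negative nucleus and at 0 in the other 8 were, as log2(TPM + 1), *Atf3* (1.08), *Dcx* (5.42), *Egr1* (7.01), *Gabra3* (3.52), *Gadd45g* (5.04), *Igfbpl1* (1.88), *Junb* (2.38), *Ndufaf3* (9.74), *Pim1* (2.89), *Slc6a8* (2.35), *Stmn4* (2.83) and *Tdp1* (8.15). Some of these lie at the floor: the values of *Atf3*, *Igfbpl1* and *Junb* each rested on 1 read. One nucleus stood above the others also for *Etv3* (5.13), *Fosl2* (4.28), *Mbp* (8.79), *Neurod1* (7.75) and *Wfs1* (7.32). One nucleus stood below the others for *Malat1* (9.0), *Gria1* (4.05), *Thra* (2.48), and at 0.00 for *Miat*, *Clasp2*, *Hsp90ab1*, *Rbfox3* and *Arhgap20*.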

How the results depend on the processing

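Of the 39 named genes with a difference of at least 3, 0 turned direction under any alternative or without any single nucleus. With group medians *Egr4* and *Nr4a1* had a difference of 0 and so no direction. The 10 µM, 1:2000 condition alone was not among these alternatives. There, without replicate 46 and so with 1 Arc-negative nucleus, *Naa20* (3.08), *Parp1* (−2.29) and *Fosl2* (−0.42) had the opposite sign. Over the other summaries, 138 higher and 185 lower genes became 453 and 685 with a pseudocount of 0.1, 373 and 6 with all 48 FOS+ nuclei, 481 and 834 with group medians, 269 and 283 as the mean of within-condition differences, and 471 and 338 without the 10 µM, 1:200 condition. With only that condition they were 324 and 612 (chosen after the data were seen). They were 462 and 765 at a limit of 2, and 237 and 279 where the share of nuclei differed by at least 40 points. The lower genes were 73 both with *Arc* above 10 TPM and with at least 5 *Arc* counts, 112 with centring, 423 in nuclei with at least 150000 counts and 511 without the 10 µM, 1:2000 condition. Without any 1 nucleus the lower genes ran from 181 to 344 and the higher from 119 to 172, with 344 and 119 both without Arc-negative replicate 46. The cause was not tested. The difference in mean genes detected per nucleus, −37.3 (Arc-positive minus Arc-negative), was 1931 with all 48 nuclei and ran from −642 (without replicate 46) to 183 without any 1 nucleus. The list medians moved, for a pseudocount of 0.1, to 5.97 (synaptic and secreted) and 3.90 (all 66 activity genes), and with group medians to 0.00 (IEG transcription factors) and 0.16 (signalling). In the 10 µM, 1:200 condition alone the synaptic and secreted genes had a median of 3.29 and 3.73 more members detected per nucleus. Without the 3 nuclei under 10 TPM of *Arc* the counts were 167 and 196. No paired analysis was possible because nuclei of the 2 groups share no replicate number and no test was run. Low counts limit all values for genes near 1 TPM.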
